A study of Mus musculus with 84 samples.

Results

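Irf8, Oas1a and Irgm1 are 3 mouse genes of the interferon response, and they were followed clone by clone on spotted cDNA arrays. Every clone that carried 1 of these symbols alone was taken, which gave 7 of the 15360 clones of the 15k arrays (Irf8 15c21, 21m1, 25l17 and 35d5, Oas1a 21d11 and 31m8, and Irgm1 23d11) and 4 of the 8832 clones of the 8.7k arrays (15c21, 21m1, 21d11 and 23d11). Sample RNA was labeled with Cy5 and hybridized against 1 preparation of reference RNA in Cy3, which was pooled from several mouse organs including spleen and thymus. A value is the log2 ratio of sample to reference, so 0 means the level of the reference pool and not absence.

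The 15k arrays held 65 samples in 8 groups. There were 10 lung metastases (WntM) and 23 mammary tumors (WntT, called Wnt-1 tumors, from mice aged 9 to 56 weeks) of MMTV-Wnt-1 transgenic mice. There were 3 lung metastases (NeuM) and 12 mammary tumors (NeuT, called Neu tumors, from mice aged 32 to 60 weeks) of MMTV-Neu transgenic mice. Another 2 lung metastases, called tail vein lesions, came from nontransgenic mice injected by tail vein with primary tumor cells of MMTV-Neu mice. The others were 3 samples of intestinal fat of virgin FVB mice aged 12 weeks, 7 hyperplastic glands of MMTV-Wnt-1 mice aged 9 weeks (WntHMG), and 5 glands of nontransgenic virgin FVB mice aged 9 weeks (VMG). The 8.7k arrays used here held 6 tumors of MMTV-Wnt-1 mice in a P53 -/- background (aged 9 to 14 weeks) and 10 other MMTV-Wnt-1 tumors. Both transgenes were driven by the mouse mammary tumor virus promoter, and the Neu transgene was a rat cDNA of the wild-type protein. MMTV-Wnt-1 mice were a mixture of FVB (the larger part), SJL and C57BL/6, while MMTV-Neu mice were pure FVB, so oncogene, age and strain cannot be told apart. Nothing in the titles says whether same-group samples came from separate animals, and p-values measure the spread between these samples only. A tissue piece holds many cell types, and in such samples fewer cells of a type and less RNA per cell cannot be told apart.

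Cells that meet an interferon signal through receptor-bound Janus kinases to transcription factors in the nucleus. Type I interferons act mainly on the interferon-stimulated response element, through a complex that contains Irf9, and interferon gamma acts mainly on the gamma-activated site. Oas1a encodes a 2′-5′ oligoadenylate synthetase, an enzyme that senses double-stranded RNA and whose product activates RNase L. Irgm1 encodes an immunity-related GTPase that acts on membranes in the defense against intracellular microbes. Irf8 encodes a transcription factor of myeloid, dendritic and B cells that is itself induced by interferon gamma.

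The 250 bases before the annotated start of each gene, from RefSeq on GRCm38.p6, are shown so that matches to known interferon response motifs can be seen in place. Capitals mark matches on either strand to GAAA, any 2 bases and GAAA again, a core of the interferon-stimulated response element, or to TTCNNNGAA, a core of the gamma-activated site that reads the same on both strands.
Oas1a, chr5:120907526-120907775, minus strand: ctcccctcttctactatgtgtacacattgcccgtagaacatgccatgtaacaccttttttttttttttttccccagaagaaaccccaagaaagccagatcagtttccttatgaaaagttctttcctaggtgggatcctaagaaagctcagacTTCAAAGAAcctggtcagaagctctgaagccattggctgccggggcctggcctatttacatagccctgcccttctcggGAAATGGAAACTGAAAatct
Irgm1, chr11:48871421-48871670, minus strand: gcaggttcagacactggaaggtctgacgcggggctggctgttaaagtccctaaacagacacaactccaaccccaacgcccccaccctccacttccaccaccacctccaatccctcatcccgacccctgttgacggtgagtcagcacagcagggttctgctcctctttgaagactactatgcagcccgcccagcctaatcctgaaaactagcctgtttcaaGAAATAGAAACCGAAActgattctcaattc
Irf8, chr8:120736108-120736357, plus strand: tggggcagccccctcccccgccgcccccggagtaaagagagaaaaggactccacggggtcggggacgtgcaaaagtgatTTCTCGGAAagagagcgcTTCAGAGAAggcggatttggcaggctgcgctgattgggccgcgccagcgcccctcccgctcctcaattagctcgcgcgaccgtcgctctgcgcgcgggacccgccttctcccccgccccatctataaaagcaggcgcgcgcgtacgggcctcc
Oas1a and Irgm1 each held 2 overlapping matches to the paired GAAA motif close to the start, beginning 20 and 14 bases before it in Oas1a and 30 and 24 bases before it in Irgm1. Among all 32851 windows of this length, 2.98% held such a match. The Irf8 window had no match to the paired GAAA motif and held 2 matches to TTCNNNGAA, beginning 171 and 153 bases before the start, and Oas1a held 1 that began 98 bases before it. That motif was present in 7.02% of the windows. A second annotated Irf8 start, whose window is not printed, had no match to either motif. A match is a description of letters and was not tested as a binding site.

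Oas1a was higher in Neu tumors than in Wnt-1 tumors and virgin glands on both of its clones, and in most samples of MMTV-Wnt-1 mice on the 15k arrays it lay near the level of the reference pool. Clone 21d11 ran from -1.31 through a median of 0.00 to 1.94 in the 23 Wnt-1 tumors, against 1.89 through 2.85 to 3.80 in the 12 Neu tumors. Of the 23 Wnt-1 tumors, 22 read less than the lowest Neu tumor. Mean log2 ratios were 0.11 ± 0.63 in Wnt-1 and 2.73 ± 0.51 in Neu tumors (SD, n = 23 and 12), a 6.14-fold lower level in Wnt-1 tumors (difference -2.62, SE 0.21, limma adjusted p = 5.1e-13). In that comparison 43.6% of all clones were called at an adjusted p under 0.05 and 21.9% of all clones were called lower, so that a call by itself was common.

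The other Oas1a clone, 31m8, differed in the same direction by less. Its mean was 0.01 ± 0.22 in Wnt-1 and 1.02 ± 0.55 in Neu tumors (SD, n = 23 and 12), 2.02-fold lower (difference -1.01, SE 0.13, limma adjusted p = 3.07e-08). Of the 12 Neu tumors, 11 lay between 0.63 and 1.55 and number 56 lay at -0.42, while the Wnt-1 tumors ran from -0.58 through 0.04 to 0.46. Because of that single Neu tumor the groups overlapped, and only 1 of 23 Wnt-1 tumors lay below all 12. In the same Neu tumor clone 21d11 read 2.88, near the median of its group, so the clones of 1 gene parted there. Within a group no correlation between them passed (r = -0.13, rho = -0.01 over 23 Wnt-1 tumors, permutation p = 0.535 and 0.966, and r = 0.05, rho = 0.22 over 12 Neu tumors, permutation p = 0.859 and 0.498).

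**Figure D1:**
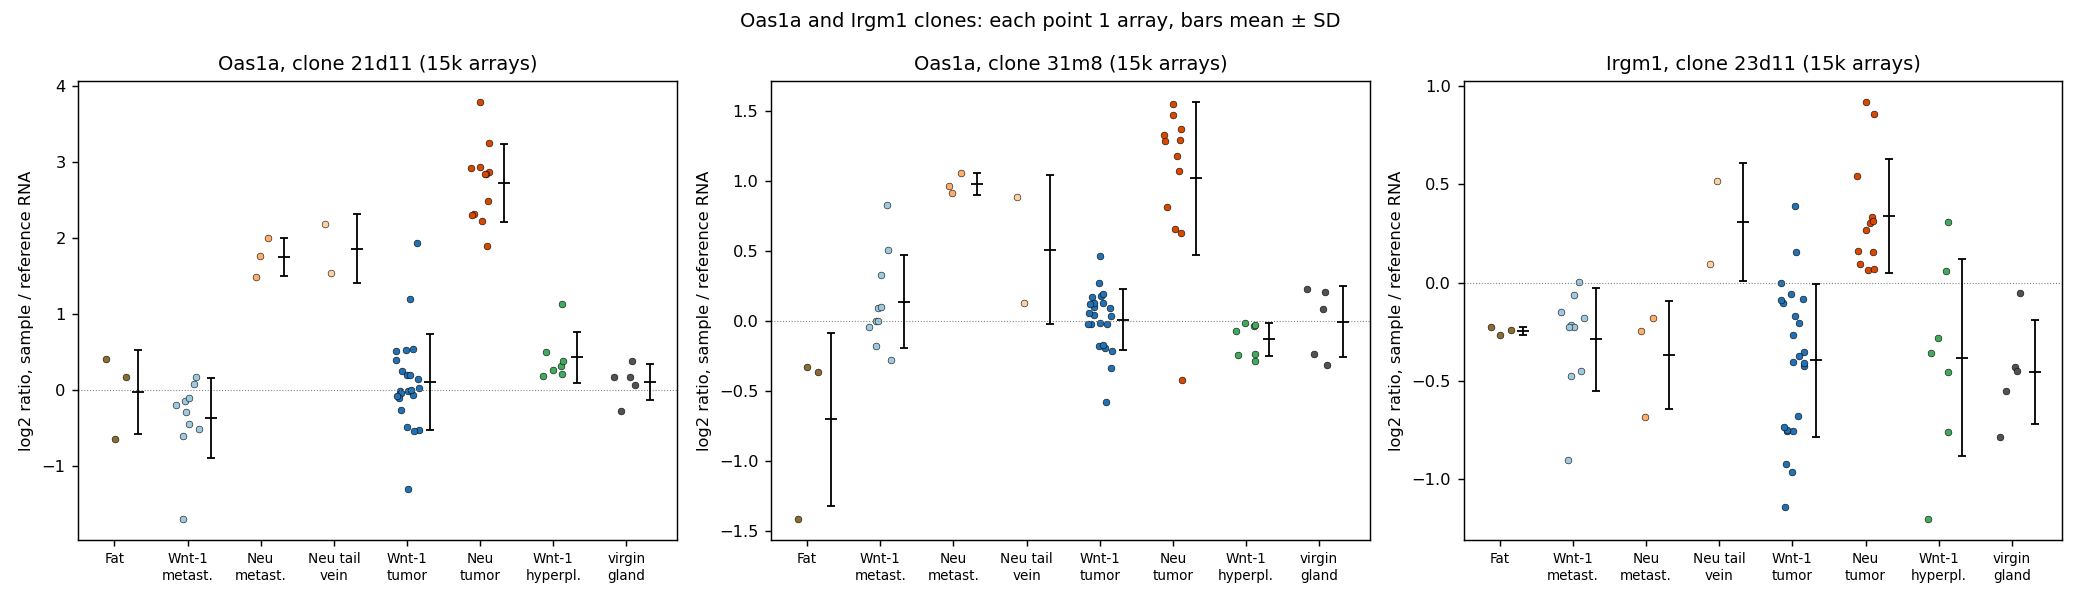
Log2 ratio of sample to reference RNA (vertical axis) of both Oas1a clones and the Irgm1 clone in the 8 groups of the 15k arrays (horizontal axis). Each point is 1 array and bars are mean ± SD; Oas1a 21d11 lies between 1.89 and 3.80 in Neu tumors and reaches 1.94 in a single Wnt-1 tumor.

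Against the virgin gland, Oas1a was raised in Neu and not detectably in Wnt-1 tumors. The 5 virgin glands read 0.07, -0.27, 0.17, 0.17 and 0.38 on clone 21d11, all below the lowest Neu tumor. The Neu tumors were 6.16-fold higher (difference 2.62, SE 0.23, limma adjusted p = 2.25e-08) in a comparison that called 52.2% of clones (24.9% higher and 27.3% lower), and on clone 31m8 they were 2.04-fold higher (difference 1.03, SE 0.24, adjusted p = 0.00172), with 11 of 12 tumors above every gland. For Wnt-1 tumors against virgin glands, where 49.4% of clones were called, neither clone passed. The difference was 0.00 on clone 21d11 (95% interval -0.57 to 0.58) and 0.01 on clone 31m8 (-0.22 to 0.25). These comparisons share the virgin glands.

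The hyperplastic glands of MMTV-Wnt-1 mice lay near the virgin glands. Clone 21d11 ran from 0.19 through 0.32 to 1.14 in the 7 hyperplastic glands, and the difference from virgin glands was 0.33 (SE 0.16, limma adjusted p = 0.181), in a comparison that called 21.9% of clones. Clone 31m8 differed by -0.12 (95% interval -0.39 to 0.14). Between Wnt-1 tumors and hyperplastic glands, where 41.7% of clones were called, the differences were -0.32 (-0.82 to 0.17) and 0.14 (-0.04 to 0.32), and neither passed.

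Between metastases that arose in the 2 transgenic lines Oas1a differed on both clones. The 3 Neu metastases read 2.00, 1.49 and 1.76 on clone 21d11, and the 2 tail vein lesions 2.18 and 1.54. On clone 31m8 the tail vein lesions read 0.88 and 0.13, and the lower of them lay inside the range of the Wnt-1 metastases (-0.28 to 0.83). The 10 Wnt-1 metastases ran from -1.70 through -0.24 to 0.18, all below every Neu metastasis. Wnt-1 metastases were 4.36-fold lower than Neu metastases on this clone (difference -2.13, SE 0.30, limma adjusted p = 0.000441) and 1.79-fold lower on clone 31m8 (difference -0.84, SE 0.20, adjusted p = 0.011), without overlap on either, in a comparison that called 15.2% of clones (7.13% higher and 8.07% lower). Without Neu metastasis 53, clone 31m8 was no longer called (adjusted p = 0.0553). The order of mean levels on clone 21d11 was Neu tumors, tail vein lesions, Neu metastases, hyperplastic glands, Wnt-1 tumors, virgin glands, fat and Wnt-1 metastases, and the only neighbours in it whose arrays did not overlap were Neu metastases and hyperplastic glands.

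Irgm1 followed Oas1a in the tumors, with smaller differences. Clone 23d11 ran from -1.14 through -0.38 to 0.39 in Wnt-1 tumors and from 0.06 through 0.29 to 0.92 in Neu tumors, and 21 of the 23 Wnt-1 values were under the lowest Neu value. Wnt-1 tumors averaged -0.40 ± 0.39 against 0.34 ± 0.29 in Neu tumors, 1.67-fold lower (SD, n = 23 and 12; difference -0.74, SE 0.13, limma adjusted p = 8.34e-06). The 5 virgin glands read -0.05, -0.55, -0.79, -0.43 and -0.45, and every Neu tumor was above all of them (1.73-fold higher, difference 0.79, SE 0.15, adjusted p = 0.000202). Wnt-1 tumors differed from virgin glands by 0.06 (95% interval -0.31 to 0.43) and from hyperplastic glands by -0.01 (-0.37 to 0.35), and neither difference passed.

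Unlike Oas1a, Irgm1 did not separate the metastases of the 2 transgenic lines. The 3 Neu metastases read -0.18, -0.25 and -0.68, below all 12 Neu tumors (1.64-fold lower, difference -0.71, SE 0.18), but over all clones the difference did not pass (limma adjusted p = 0.248), in a comparison that called 0.195% of clones, every called clone being higher. The tail vein lesions, at 0.10 and 0.52, lay within the range of the Neu tumors. The Wnt-1 metastases ran from -0.91 through -0.22 to 0.00 and differed from Neu metastases by 0.08 (95% interval -0.30 to 0.46). The Wnt-1 change from tumor to metastasis minus the Neu change was 0.82 for Irgm1 (SE 0.25, p = 0.00212 unadjusted, limma adjusted p = 0.346), so this difference did not pass either. Lung epithelium markers stood higher in metastases than in tumors, and the lung tissue in the samples was not measured. Of 6 lung epithelium clones, 4 were higher in Wnt-1 metastases than in Wnt-1 tumors, where 2.47% of all clones were called higher. In Neu metastases 3 of the 6 were higher than in Neu tumors. The mean of that list ran from -0.35 to 1.27 in Wnt-1 metastases, against -4.74 to -2.24 in Wnt-1 tumors. In Neu metastases it ran from -0.99 to 1.07, against -3.08 to -2.07 in Neu tumors. The part of lung tissue in the Irgm1 values was not tested.

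By limma none of the 7 clones passed between Wnt-1 metastases and Wnt-1 tumors, where 4.62% of clones were called (2.47% higher and 2.15% lower) and 1 of the 7 had an unadjusted p under 0.05. The differences of the 7 lay between -0.48 (Oas1a 21d11, adjusted p = 0.232) and 0.13 (Oas1a 31m8, adjusted p = 0.514). Between Neu metastases and Neu tumors, where 0.195% of clones were called, none passed either (2 of the 7 at an unadjusted p under 0.05). Oas1a 21d11 differed there by -0.97 (95% interval -1.60 to -0.34, adjusted p = 0.419). The share of all clones under that unadjusted p is not given for either comparison, so nothing is drawn from those counts. The interaction of metastasis and oncogene called none of the 7 clones and 0.0651% of all clones (0.0326% in either direction).

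The 4 Irf8 clones did not give 1 pattern. Over the 65 arrays of the 15k type, which fall into distinct groups, clones 21m1, 25l17 and 35d5 correlated with each other (r = 0.55, 0.49 and 0.44), while clone 15c21 stood apart (r = -0.07 with 21m1, -0.26 with 25l17 and -0.04 with 35d5). On the 15k arrays clone 15c21 was high in tumors and metastases of MMTV-Wnt-1 mice and between -0.79 and 1.07 elsewhere, apart from 1 fat array. On the 8.7k arrays the same clone read -2.50 to -1.11 in Wnt-1 tumors, and which sequence lay at its position on each array type could not be settled from the sources used here, so its values are those of a clone annotated as Irf8. On the 15k arrays it ran from 1.53 through 2.35 to 3.14 in Wnt-1 tumors, against -0.79 through -0.06 to 1.01 in Neu tumors, so the groups did not overlap. Means were 2.41 ± 0.45 and 0.06 ± 0.60 (SD, n = 23 and 12), 5.09-fold higher in Wnt-1 tumors (difference 2.35, SE 0.18, limma adjusted p = 1.43e-13, with 21.7% of all clones called higher).

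The same clone rose in steps from virgin glands of nontransgenic mice to hyperplastic glands and then tumors of MMTV-Wnt-1 mice. In the step from virgin to hyperplastic glands, stage, transgene and strain cannot be told apart. The 7 hyperplastic glands ran from 0.28 through 0.72 to 1.07, and the 5 virgin glands read 0.15, -0.13, 0.00, -0.26 and -0.39. Hyperplastic glands were 1.76-fold higher than virgin glands (difference 0.82, SE 0.15, limma adjusted p = 0.00139, with 8.93% of clones called higher), and Wnt-1 tumors were 3.29-fold higher than hyperplastic glands (difference 1.72, SE 0.18, adjusted p = 2.57e-09, with 20.1% called higher), without overlap at either step. With all groups in 1 fit, the difference between hyperplastic and virgin glands was the same and was not called (SE 0.55, adjusted p = 0.392). Wnt-1 metastases were 4.54-fold higher than Neu metastases (difference 2.18, SE 0.30, adjusted p = 0.000304). Neu tumors differed from virgin glands by 0.19 (95% interval -0.37 to 0.74) and were not called.

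**Figure D2:**
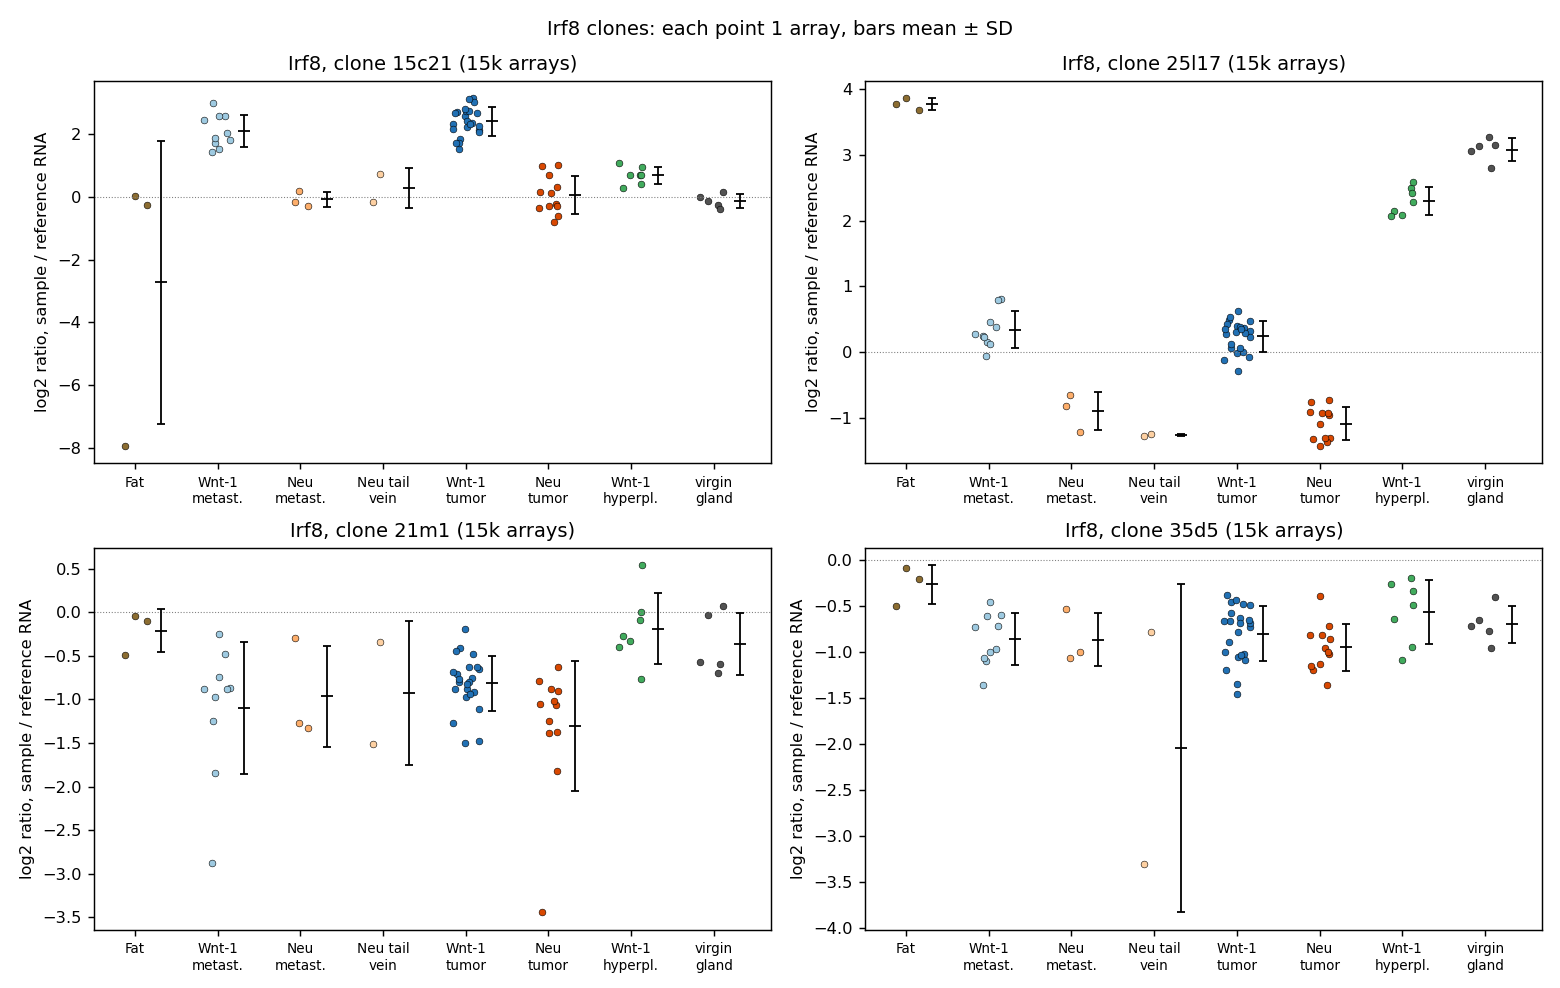
Log2 ratio of sample to reference RNA (vertical axis) of the 4 Irf8 clones in the 8 groups of the 15k arrays (horizontal axis). Each point is 1 array and bars are mean ± SD; clone 15c21 is highest in Wnt-1 tumors (mean 2.41) and clone 25l17 in fat (mean 3.77), and 1 fat array lies at -7.93 on clone 15c21.

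Clone 25l17 ran the other way along the same stages. It read 3.77, 3.86 and 3.69 in the fat samples and 3.15, 3.13, 3.06, 3.26 and 2.80 in the virgin glands, and it ran from 2.07 through 2.28 to 2.59 in hyperplastic glands. In Wnt-1 tumors it ran from -0.28 through 0.31 to 0.63, and in Neu tumors from -1.42 through -1.02 to -0.73. No 2 of these 5 groups overlapped. Wnt-1 tumors were 2.51-fold higher than Neu tumors (difference 1.33, SE 0.09, limma adjusted p = 2.83e-15), 4.15-fold lower than hyperplastic glands (difference -2.05, SE 0.10, adjusted p = 1.97e-16) and 7.14-fold lower than virgin glands (difference -2.84, SE 0.11, adjusted p = 2.91e-18). Neu tumors were 17.9-fold lower than virgin glands (difference -4.16, SE 0.12, adjusted p = 1.46e-14).

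The adipocyte markers moved with clone 25l17. The mean level of 20 clones for 10 of 11 adipocyte genes ran from 3.14 to 3.42 in fat, 2.11 to 2.42 in virgin glands, 0.85 to 1.38 in hyperplastic glands, -2.43 to -0.87 in Wnt-1 tumors and -1.96 to -1.06 in Neu tumors. Relative to virgin glands, 17 of these 20 clones were lower in Wnt-1 tumors, 16 in Neu tumors and 15 in hyperplastic glands. Of all clones 25.1%, 27.3% and 13% were lower in those comparisons. Of 4 mammary luminal clones, 3 were higher and 0 lower in Wnt-1 tumors, and 3 higher and 1 lower in Neu tumors, than in virgin glands. The shares of all clones called higher there were 24.3% in Wnt-1 tumors and 24.9% in Neu tumors. Between Wnt-1 and Neu tumors, where clone 25l17 did not overlap, 2 adipocyte clones were higher and 5 lower, with a median difference of 0.13. Over all clones 21.7% were higher and 21.9% lower in that comparison, and the lower adipocyte clones lay near that share. The part of fat tissue in the values of this clone was not tested. Fat was higher than virgin gland on clone 25l17 (1.61-fold, difference 0.69, SE 0.13, limma adjusted p = 0.0223, with 9.09% of clones called, 5.31% higher and 3.78% lower), but after quantile normalization this turned to -0.05 (adjusted p = 0.851). The fall from virgin to hyperplastic gland (difference -0.78, SE 0.12, adjusted p = 0.000599) was likewise not called after quantile normalization (-0.29, adjusted p = 0.2).

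Clones 21m1 and 35d5 had group means below 0 in all 8 groups. Clone 21m1 averaged -0.81 ± 0.31 in Wnt-1 and -1.30 ± 0.75 in Neu tumors (SD, n = 23 and 12; difference 0.49, SE 0.17, limma adjusted p = 0.0225), where Neu tumor 67 lay at -3.44. After quantile normalization that difference was 0.36 and was not called (adjusted p = 0.0945). On the same clone Wnt-1 tumors were 1.55-fold lower than hyperplastic glands (difference -0.63, SE 0.14, adjusted p = 0.000628). They were 1.37-fold lower than virgin glands (difference -0.45, SE 0.16, adjusted p = 0.0181), which was not called without virgin gland 13 or 17 (adjusted p = 0.0995 and 0.0818). Neu tumors were 1.91-fold lower than virgin glands (difference -0.93, SE 0.33, adjusted p = 0.0238), also not called without either gland (adjusted p = 0.0679 and 0.0631). Clone 35d5 had group means between -0.95 in Neu tumors and -0.26 in fat, leaving aside the 2 tail vein lesions at -3.31 and -0.78. It was called only in fat against all primary tumors (1.5-fold higher, difference 0.59, SE 0.17, adjusted p = 0.0046, with 53.3% of clones called).

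**Figure D3:**
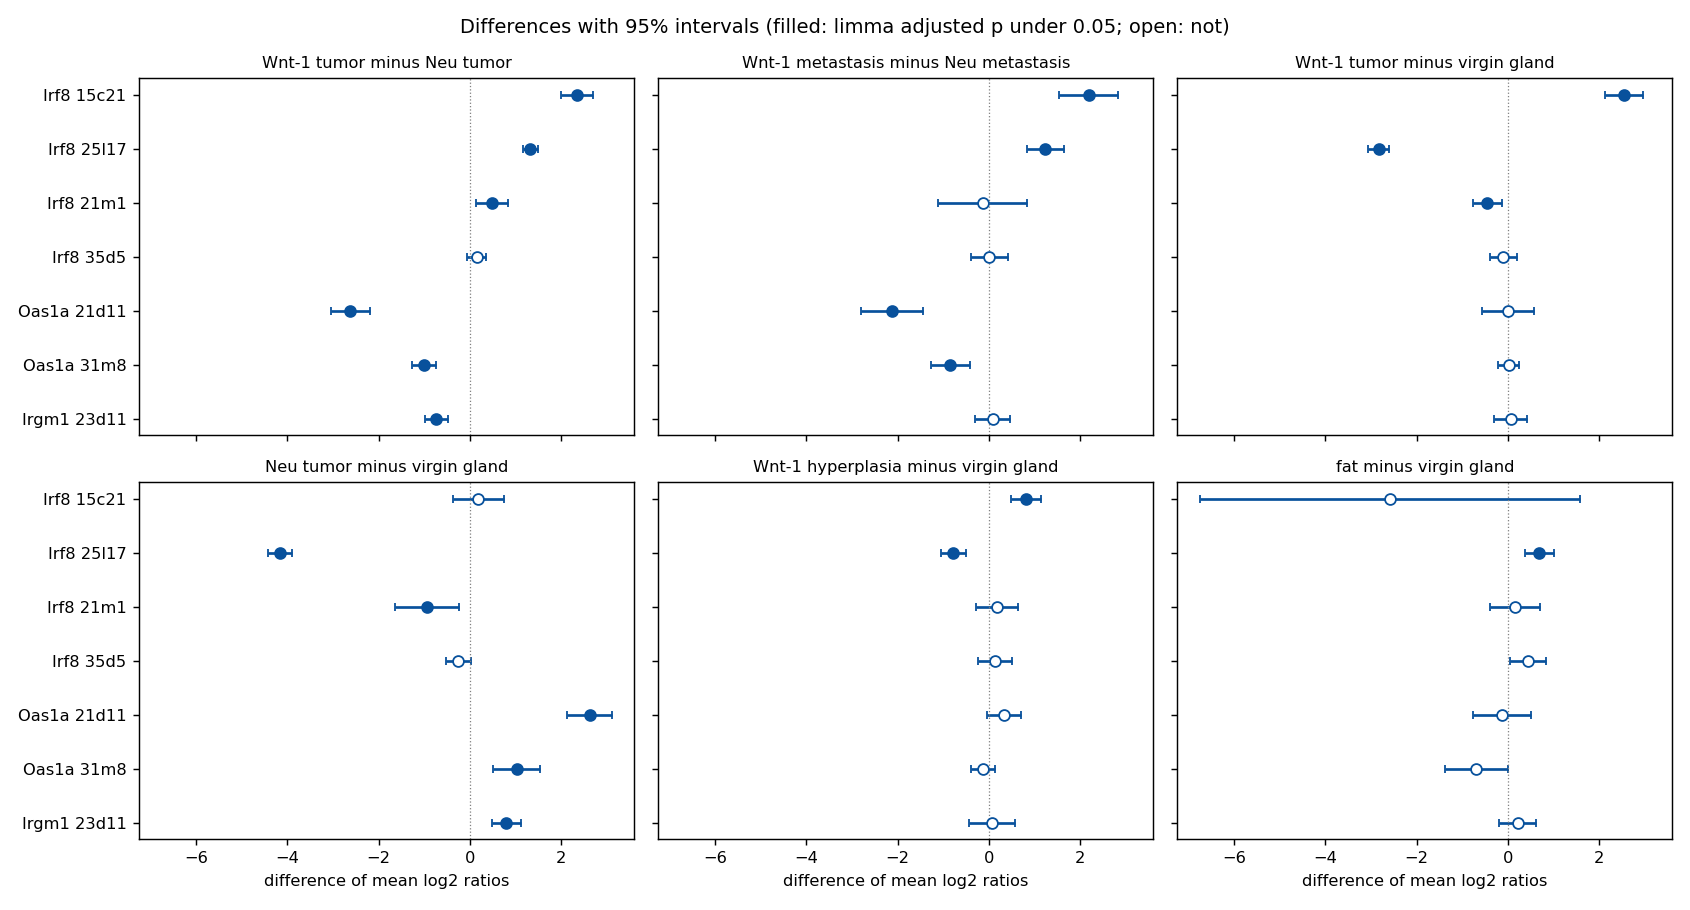
Difference of mean log2 ratios (horizontal axis, first-named group minus the other) of the 7 clones (vertical axis) in 6 comparisons of the 15k arrays. Points are differences with 95% intervals, filled where the limma adjusted p was under 0.05; the Irf8 clones 15c21 and 25l17 lie on opposite sides of 0 for Wnt-1 tumors against virgin glands, at 2.53 and -2.84.

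Wnt-1 tumors therefore lay above virgin glands on Irf8 clone 15c21 and below them on clones 25l17 and 21m1, and on clone 35d5 the difference was -0.10 (95% interval -0.39 to 0.19). Within the Wnt-1 tumors of the 15k arrays no pair of Irf8 clones had a correlation that passed adjustment. Over 23 Wnt-1 tumors the correlation of 15c21 with 21m1 was r = 0.05 (rho = 0.09, permutation p = 0.807 and 0.67) and with 25l17 r = -0.05 (rho = -0.04, permutation p = 0.804 and 0.869). The closest pair was 21m1 with 35d5, at r = 0.45 and rho = 0.57 (permutation p = 0.0294 and 0.00563, adjusted over 20 pairs 0.196 and 0.0563), and r was 0.55 without the 2 tumors farthest from the median. Irf8 is a gene of blood-derived cells, and pan-leukocyte markers stood higher in Wnt-1 than in Neu tumors (5 of 7 clones, median difference 0.58, list mean -0.90 to 0.09 against -1.60 to -0.64). Of 10 macrophage clones 4 were higher and 1 lower, and of 10 B lymphocyte clones 2 were higher and 0 lower. Of 2 dendritic clones 0 were called, and of 4 T lymphocyte clones 1 was higher and 1 lower. The shares of all clones were 21.7% higher and 21.9% lower. Relative to hyperplastic glands, where clone 15c21 was higher in Wnt-1 tumors, pan-leukocyte markers had 0 clones higher and 4 lower (median difference -0.55) and B lymphocyte markers 0 higher and 8 lower. Relative to virgin glands, 2 pan-leukocyte clones were higher and 4 lower in Wnt-1 tumors, and 0 B lymphocyte clones were higher and 6 lower. Macrophage markers had 2 clones higher and 2 lower against hyperplastic glands (median difference -0.05) and likewise against virgin glands (0.11). In both comparisons 0 dendritic clones were higher and 1 lower, and 0 T lymphocyte clones higher and 3 lower. Shares of all clones were 20.1% higher and 21.7% lower against hyperplastic glands, and 24.3% and 25.1% against virgin glands. The part of these cells in the Irf8 values was not tested.

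The array types gave opposite signs for Irf8 clone 15c21. In the 10 MMTV-Wnt-1 tumors of the 8.7k arrays it ran from -2.50 through -1.85 to -1.11, against 1.53 to 3.14 in the 23 on the 15k arrays, a gap of 4.16 between the means. The types were normalized apart, so a level set across them is a description only. Of 7350 positions that carried the same accession on both types, 1 had a larger gap between the Wnt-1 tumor means (0.0136%), and the median gap was 0.13. The other members kept their level, with gaps of 0.26 for Irf8 21m1, -0.05 for Oas1a 21d11 and 0.11 for Irgm1 23d11. On the 8.7k arrays the correlation of both Irf8 clones over the 10 Wnt-1 tumors did not pass adjustment either (r = 0.84, rho = 0.77, permutation p = 0.00313 and 0.0127, adjusted over 20 pairs 0.0626 and 0.0849), and r was 0.74 without the 2 tumors farthest from the median.

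P53 null tumors differed from other Wnt-1 tumors in Irgm1. The 6 P53 null tumors ran from -0.13 through 0.41 to 0.81 on clone 23d11, against -0.90 through -0.42 to -0.10 in the 10 others, and 5 of 6 lay above all 10. The level was 1.79-fold higher (difference 0.84, SE 0.17, limma adjusted p = 0.0453) in a comparison that called 0.442% of clones, with 0.147% called higher. The adjusted p lay close to the threshold: leaving out 1 tumor at a time left the difference between 0.74 and 0.93 and the adjusted p between 0.0376 and 0.0924, above 0.05 for 13 of the 16 tumors. Oas1a 21d11 ran from 0.24 through 1.22 to 2.03 in P53 null tumors and from -0.33 through 0.05 to 1.16 in the others, 1.94-fold higher (difference 0.96, SE 0.27, adjusted p = 0.102), and did not pass. Irf8 differed by -0.07 on clone 15c21 (95% interval -0.56 to 0.42) and by -0.39 on clone 21m1 (-0.85 to 0.07). The P53 null mice lay at the young end of the age range given for the Wnt-1 tumors of both array types, and age and P53 cannot be told apart here. Pan-leukocyte markers had no called clone of 5 (list mean -2.26 to -0.63 in P53 null tumors, against -2.27 to -0.51).

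**Figure D4:**
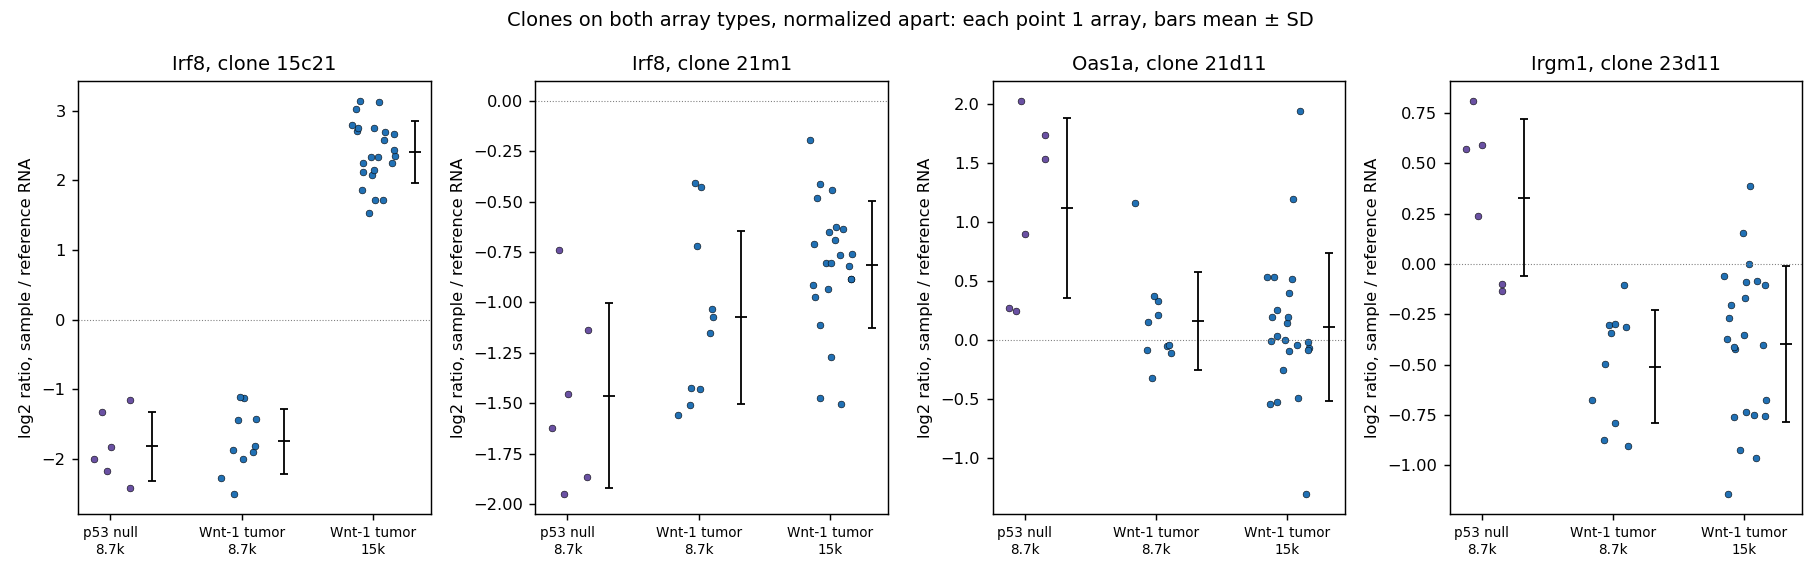
Log2 ratio of sample to reference RNA (vertical axis) of the 4 clones present on both array types, in P53 null tumors and other Wnt-1 tumors on the 8.7k arrays and Wnt-1 tumors on the 15k arrays. Each point is 1 array and bars are mean ± SD; Irf8 15c21 averages -1.75 on the 8.7k and 2.41 on the 15k arrays, while the other 3 clones differ by 0.26 or less in Wnt-1 tumors.

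Other Oas genes were lower in part. Of 5 clones for 4 other Oas genes, 2 were lower and 0 higher in Wnt-1 than in Neu tumors, with a median difference of -0.79. Over all clones the median was -0.04, with 21.9% lower and 21.7% higher. Members of this family are alike in sequence, and hybridization of 1 gene's RNA to another's clone was not tested. Oasl2 (difference -1.42, adjusted p = 2.26e-09) and Oasl1 (-1.10, adjusted p = 0.0151), oligoadenylate synthetase-like proteins, were lower, while Oas1g (-0.18, adjusted p = 0.0516) and both Oas2 clones (0.26 and -0.79) did not pass. Against virgin glands 3 of these 5 clones were higher in Neu tumors, with Oas1g at 1.10 and Oasl2 at 1.27, and in Wnt-1 tumors only Oas1g was (0.92, adjusted p = 8.99e-08). Against virgin glands 24.9% of all clones were higher and 27.3% lower in Neu tumors. In Wnt-1 tumors 24.3% were higher and 25.1% lower, so 1 of 5 clones lay near the share. In P53 null against other Wnt-1 tumors all 4 other Oas clones measured had positive differences, from 0.63 for Oas2 to 0.98 for Oasl2, and none was called (adjusted p from 0.0566 to 0.221).

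**Figure D5:**
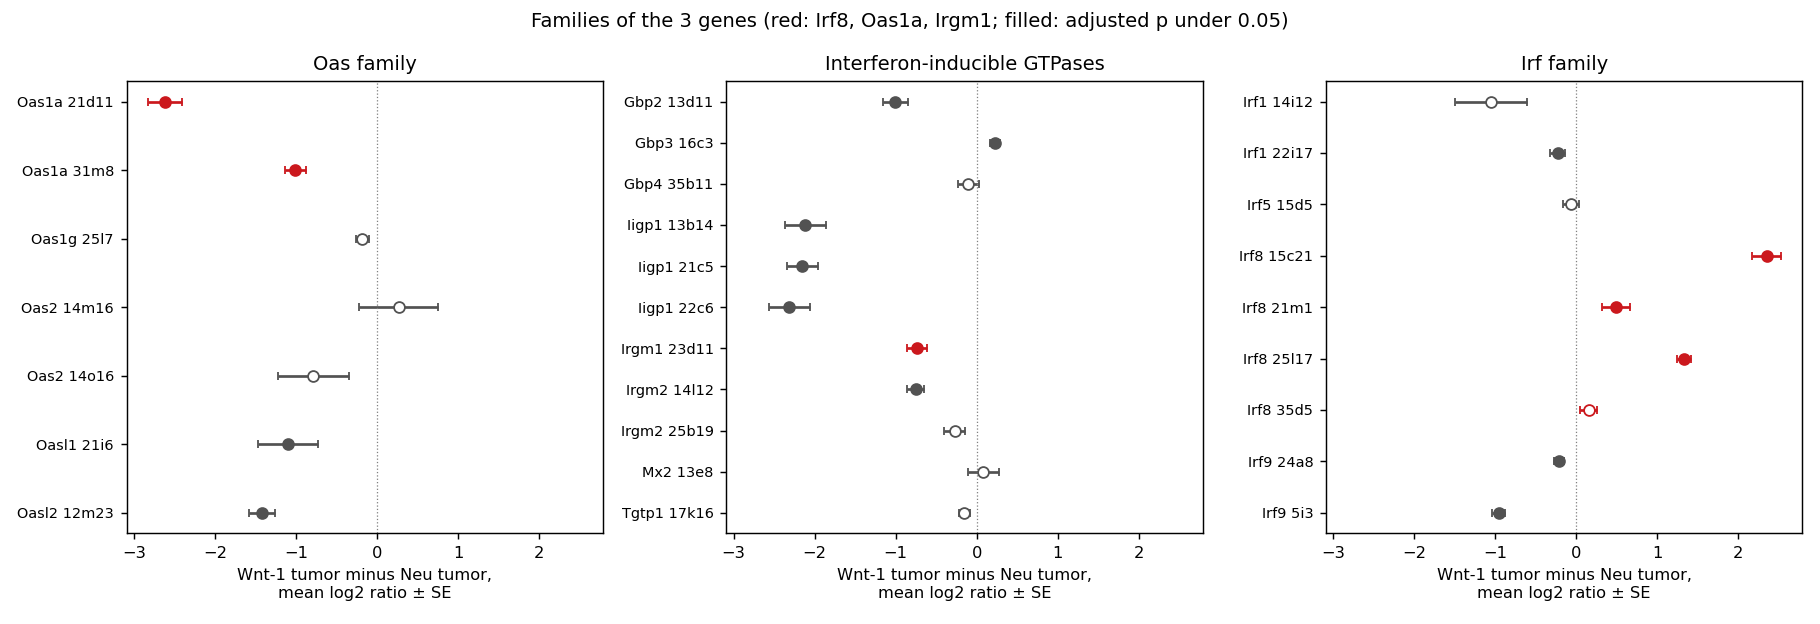
Difference of mean log2 ratios of Wnt-1 minus Neu tumors (horizontal axis, ± SE) for each clone of the Oas family, the interferon-inducible GTPases and the Irf family (vertical axis). Red marks Oas1a, Irgm1 and Irf8, and filled points had an adjusted p under 0.05; the called Oas clones lie between -2.62 and -1.01 and the called Irf8 clones between 0.49 and 2.35.

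Among the interferon-inducible GTPases other than Irgm1, 5 of 10 clones were lower and 1 was higher in Wnt-1 than in Neu tumors, with a median difference of -0.51. Of all clones 21.9% were lower and 21.7% higher there. All 3 clones of Iigp1, a GTPase that coats the vacuoles of parasites, were lower (differences -2.12, -2.15 and -2.31). Irgm2 14l12 was lower by a difference of -0.75 (adjusted p = 1.37e-07), close to the value of Irgm1, and Irgm2 25b19 did not pass (-0.27, adjusted p = 0.0826). Gbp2, a guanylate binding protein, was lower (-1.01) and Gbp3 was slightly higher (0.22, adjusted p = 0.00447). Gbp4 (-0.10), Mx2 (0.08) and Tgtp1 (-0.15) did not pass. Against virgin glands the family split in Neu tumors, with 3 other clones higher, among them Irgm2 14l12, and 3 lower, among them Tgtp1 (-1.88) and Gbp4 (-1.01). In Wnt-1 tumors 7 of the 10 were lower and 0 higher than in virgin glands. The shares of all clones against virgin glands were 24.9% higher and 27.3% lower in Neu tumors. They were 24.3% higher and 25.1% lower in Wnt-1 tumors.

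Of 5 clones for 3 other Irf genes, 0 were higher and 3 lower in Wnt-1 than in Neu tumors. Of all clones 21.7% were higher and 21.9% lower there. Of the 4 Irf8 clones, 3 were higher in that comparison, Irf8 15c21 among them, and 1 did not pass. In Wnt-1 tumors 1 of the 5 was higher and 0 lower than in hyperplastic glands. Against virgin glands 1 was higher and 1 lower. The shares of all clones in those gland comparisons were 20.1% higher and 21.7% lower, and 24.3% higher and 25.1% lower. Irf9, a DNA-binding subunit of the complex that type I interferons activate, was lower in Wnt-1 than in Neu tumors on both clones (5i3 -0.96, adjusted p = 1.48e-12, and 24a8 -0.21, adjusted p = 0.00748). Irf1 was lower on clone 22i17 (-0.23, adjusted p = 0.0385) and not called on clone 14i12 (-1.05, adjusted p = 0.0519), and Irf5 did not pass (-0.07).

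Over all interferon lists without the 3 genes, 82 clones for 54 genes were measured, of which 31 were lower and 15 higher in Wnt-1 than in Neu tumors (median -0.12). Of all clones on the arrays 21.9% were lower and 21.7% higher. The smallest adjusted p among those lower belonged to Ifi27, a mitochondrial protein induced by interferon alpha (clones 5j18 and 28n5, differences -2.07 and -1.50), followed, with Oas1a set aside, by Irf9 and Iigp1. Among those higher, with Irf8 set aside, they belonged to the chemokine Cxcl9 on clone 30k16 (1.04, adjusted p = 5.36e-12) and to the class II antigen-presenting molecules H2-Eb1 (0.40 to 2.44 over 4 clones) and H2-Ab1 (1.51). The other Cxcl9 clone, 17i9, did not pass (0.18, adjusted p = 0.449). The list of interferons and receptors had 1 of 2 clones lower, that of antigen processing genes 7 of 14 higher and 3 lower, and that of other induced genes 7 of 33 higher and 11 lower. The higher clones among other induced genes lay near the share of 21.7% over all clones.

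The clones whose pattern over the 65 arrays of the 15k type was most like that of a member differed from clone to clone. The 65 arrays share the reference RNA and fall into distinct groups, so the correlation follows the group means and is given with its value within the 23 Wnt-1 tumors. For Oas1a 21d11 the nearest were Spag9 (r = 0.93, and 0.63 within), Rtp4 30a6, an interferon-induced gene (0.91, and 0.29 within), and the fatty acid elongase Elovl6 (0.88, and 0.22 within). For Irgm1 they were Rtp4 14h17 (0.73, and 0.57 within), Irf9 5i3 (0.71, and 0.66 within) and Irgm2 14l12 (0.67, and 0.26 within). The neighbours of Irgm1 were thus listed interferon genes or Rtp4.

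For Irf8 15c21 the nearest were the nucleolar protein Nop56 (r = 0.92, and 0.31 within), Bspry (0.92, and 0.23 within) and the methyltransferase Prmt3 (0.89, and 0.11 within). For Irf8 25l17 they were Wsb1 25l15 (0.99, and 0.85 within), whose position label starts with the same 3 characters as that of the Irf8 clone, Cxcl9 30k16 (0.97, and 0.67 within) and the basement membrane protein Nid1 (0.97, and 0.22 within). For Irf8 21m1 they were Prkab2, Ipo11 and 1810013L24Rik (0.76, 0.73 and 0.73), and for Irf8 35d5 Itih5, Ckm and Tmem119 (0.76, 0.71 and 0.69). For Oas1a 31m8 they were Yipf6 31m16 (0.83, and 0.86 within), whose label also starts with the same 3 characters, the hexokinase Hk1 (0.83, and 0.33 within) and Tram1 (0.82, and 0.03 within). No clone of any other member was among the 3 nearest of a member.

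Fat differed from the primary tumors mainly on Irf8 clone 25l17, which was 15.8-fold higher in the 3 fat samples than in the 35 tumors (difference 3.98, SE 0.39, limma adjusted p = 6.23e-11). Irf8 15c21 read -7.93, 0.05 and -0.27 in fat, and the called difference of -4.32 (adjusted p = 0.000192) was -1.72 and not called without fat array 44 (adjusted p = 0.12). Irf8 21m1 (0.77, adjusted p = 0.0387) was not called without any 1 of the 3 fat arrays (adjusted p from 0.0612 to 0.141). Oas1a 31m8 read -1.42, -0.33 and -0.36 in fat and was lower than in tumors (-1.06, adjusted p = 0.0119), which was not called without array 44 (-0.70, adjusted p = 0.205). Oas1a 21d11 (-1.03, adjusted p = 0.284) and Irgm1 (-0.10, adjusted p = 0.79) did not pass. Array 44 had among the widest spreads of log2 ratios, 1 of 6 arrays of the 15k type with an SD over 1.3.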

How the data were processed

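RNA of mouse mammary tumors, glands, lung metastases and fat was hybridized to spotted cDNA arrays with a common reference. Deposited values are log2 ratios (Cy5 over Cy3) as the authors normalized them. The authors also scored spot quality and left out genes with a low mean score, a filter not repeated here. Base 2 follows from the floor of the values (lowest value -13.2877, a ratio of 1e-04). On the 15k arrays 8 values were missing, medians ran from -0.144 to 0.0431 and SDs from 0.67 to 2.59, and precision is limited by how many arrays a group has. Clones were named through the platform annotation (11860 of 15360 and 7147 of 8832 with 1 symbol, and no symbol needed updating). For each comparison limma 3.58.1 (lmFit and eBayes, R 4.3.3) was fitted to its groups, with Benjamini-Hochberg adjusted p under 0.05, two-sided. Clones were kept if measured on 50% or more of the arrays of each group, and on 2 or more in each. Folds are ratios of geometric means. Correlations used 1e+05 permutations, two-sided. The fits were tested on simulated data. Alternatives were centring, quantile normalization, missing-value filters, all groups in 1 fit, another variance prior, extreme ratios removed, the methods' permutation t-test, arithmetic means, arrays left out, and blocks by sample number. Named genes were every member clone, their families, the 4 list genes of smallest adjusted p in each direction between Wnt-1 and Neu tumors, and the 3 clones nearest to each member. Members and lists were chosen with earlier results of these data known. Another group, of 3 tumors on 8.7k arrays, is left unreported.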

Additional observations from a re-analysis of the deposited data

Results flagged for a closer look

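Among 29 sets of 4 to 10 arrays of a member clone, 4 held an array far from the others of its group by Dixon's test at the 95% level, where chance flags about 1 in 20. Oas1a 21d11 read 1.14 in hyperplastic gland 14, with the next gland at 0.49. Wnt-1 metastasis 19 was the lowest of its group on Oas1a 21d11 (-1.70, next -0.60) and on Irgm1 23d11 (-0.91, next -0.47), and its array is 1 of the 6 of the 15k type with an SD over 1.3. On the 8.7k arrays, Wnt-1 tumor 92 read 1.16 on Oas1a 21d11, with the next tumor at 0.37.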

How the results depend on the processing

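Over 81 results and 1237 alternative values, 1146 were counted as unchanged, 43 lost the call, 5 gained one and 43 changed sign, 42 of these uncalled both before and after. Unchanged meant the same direction and side of the threshold, except for arithmetic means and the permutation t-test. Arithmetic means gave no p-value and counted as unchanged if they moved by less than 1 SD. Their sign was checked only for called results. The permutation t-test kept the main difference, so only its call could change. With 8 values missing on the 15k arrays and 0 on the 8.7k arrays, the missing-value filters nearly repeated the main fit. Their values could hardly change, and they add to the count of unchanged values. Quantile normalization reversed fat against virgin gland on Irf8 25l17 (-0.047), called fat against virgin gland on Irf8 35d5 (0.71), and ended the calls of fat against tumors on Oas1a 31m8 (-0.74), hyperplastic against virgin gland on Irf8 25l17 (-0.29), Wnt-1 against Neu tumors on Irf8 21m1 (0.36) and P53 null against other Wnt-1 tumors on Irgm1 (0.88). With all groups in 1 fit, fat against virgin gland was called on Irf8 15c21 (-2.59) and Oas1a 31m8 (-0.70) and fat against tumors on Oas1a 21d11 (-1.03), while hyperplastic against virgin gland on Irf8 15c21 (0.82) and Wnt-1 tumors against virgin gland on Irf8 21m1 (-0.45) were not. Without the 6 wide arrays, a choice made after seeing the data, fat against tumors was not called on Irf8 15c21 (-1.63), Irf8 21m1 (0.92) or Oas1a 31m8 (-0.74), and with extreme ratios set to missing not on Irf8 15c21 (-1.72). The methods' permutation t-test, at its threshold of 0.001, did not call fat against tumors on Irf8 15c21 (-4.32), Irf8 21m1 (0.77) and Oas1a 31m8 (-1.06), Neu tumors against virgin gland on Irf8 21m1 (-0.93) and Oas1a 31m8 (1.03), Wnt-1 against Neu tumors on Irf8 21m1 (0.49), or Wnt-1 tumors against virgin gland on Irf8 21m1 (-0.45). Uncalled differences that changed sign were, after quantile normalization, fat against tumors on Irgm1 (0.026), Neu metastases against Neu tumors on Irf8 35d5 (-0.072) and Oas1a 31m8 (0.041), Wnt-1 metastases against Wnt-1 tumors on Irf8 35d5 (0.017), Wnt-1 tumors against virgin gland on Irf8 35d5 (0.040), the interaction on Irf8 25l17 (0.084) and 35d5 (0.089), and P53 null against other Wnt-1 tumors on Irf8 15c21 (0.16). With tail vein lesions pooled, they were Neu metastases against Neu tumors on Irf8 15c21 (0.0058) and 35d5 (-0.39), Wnt-1 against Neu metastases on Irgm1 (-0.19), and the interaction on Irf8 25l17 (0.057) and 35d5 (0.33). Without wide arrays, they were fat against virgin gland on Irf8 15c21 (0.013, as with extreme ratios set to missing), Wnt-1 metastases against Wnt-1 tumors on Irf8 35d5 (0.0041) and Wnt-1 tumors against virgin gland on Oas1a 21d11 (-0.020). With medians centred, it was Wnt-1 tumors against hyperplastic gland on Irgm1 (0.015). The cause of these shifts was not tested. That test was not used where the smallest p it allows is above 0.001: hyperplastic against virgin gland, Neu metastases against Neu tumors, Wnt-1 against Neu metastases, and fat against virgin gland.

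Leaving out 1 array at a time gave these ranges where a call changed: fat against virgin gland on Irf8 25l17 0.62 to 0.74 (not called without fat 45, virgin gland 17 or 27), fat against tumors on Irf8 15c21 -5.70 to -1.72, Irf8 21m1 0.68 to 0.91 and Oas1a 31m8 -1.24 to -0.70, Neu tumors against virgin gland on Irf8 21m1 -1.02 to -0.74 and Irf8 35d5 -0.32 to -0.18 (called without Neu tumor 73), Wnt-1 against Neu metastases on Oas1a 31m8 -0.88 to -0.80, Wnt-1 tumors against virgin gland on Irf8 21m1 -0.53 to -0.34, and P53 null against other Wnt-1 tumors on Irgm1 0.74 to 0.93. Ranges that crossed 0 with no call were fat against virgin gland on Irf8 15c21 -3.98 to 0.013 and Oas1a 21d11 -0.34 to 0.19, Neu metastases against Neu tumors on Irf8 21m1 -0.00044 to 0.52 and 35d5 -0.082 to 0.18, hyperplastic against virgin gland on Irgm1 -0.013 to 0.17, Wnt-1 against Neu metastases on Irf8 21m1 -0.32 to 0.20, Irf8 35d5 -0.093 to 0.17 and Irgm1 -0.077 to 0.18, Wnt-1 tumors against virgin gland on Irgm1 -0.026 to 0.16, Oas1a 21d11 -0.089 to 0.074 and Oas1a 31m8 -0.063 to 0.073, the interaction on Irf8 25l17 -0.25 to 0.033 and 35d5 -0.24 to 0.022, and P53 null against other Wnt-1 tumors on Irf8 15c21 -0.20 to 0.051. Leaving out single Neu tumors and single arrays of the P53 null comparison was added after seeing the data. Same-numbered metastases and tumors did not deviate together in every pair (r from -0.07 to 0.29 over 7 Wnt-1 pairs and -0.01 to 0.12 over 3 Neu pairs, with 1 of 7 and 0 of 3 closest to its own number). In some pairs r was above the median r with other tumors (0.29 against -0.12 for Wnt-1 number 62). In others it was below (-0.07 against 0.02 for Wnt-1 number 47). These values do not settle whether the number is a pairing. The main fit used no block because the study's methods used none. As a random replicate block the sample number changed no call (Irgm1 in Neu metastases against Neu tumors -0.71, adjusted p = 0.227, and Oas1a 21d11 in Wnt-1 metastases against Wnt-1 tumors -0.46, adjusted p = 0.226, both by limma). As a fixed block over shared numbers, uncalled differences changed sign for Neu metastases against Neu tumors on Irf8 15c21 (0.034), Irf8 21m1 (-0.020) and Oas1a 31m8 (0.47), and for Wnt-1 metastases against Wnt-1 tumors on Irf8 21m1 (0.027) and 35d5 (0.17).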
